A study of Mus musculus with 10 samples.

Results

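The genes described here were 35 genes of fatty acid and sterol synthesis in mouse embryonic stem (ES) cells treated with MB-3, out of 30677 genes in the count table. They were listed by function: MB-3, an inhibitor of the histone acetyltransferase Kat2a, is a gamma-butyrolactone, and compounds of that class resemble inhibitors of fatty acid synthase. The list held 13 enzymes that make, elongate or desaturate fatty acids, 4 genes that control the sterol response, and 18 genes that make cholesterol or carry it between membranes. All 35 had enough counts to be tested.

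TNGA cells are mouse ES cells with a GFP reporter at a single Nanog allele, kept here in serum and LIF, the cytokine that maintains self-renewal. Cultures received vehicle, dimethyl sulfoxide (DMSO), or 100 μM MB-3 for 48 hours, and the final DMSO content was 0.1% in every culture of either kind. Polyadenylated RNA was sequenced from triplicates of each treatment, lettered A, B and C, and the acetylated histone mark H3K9ac was mapped from duplicates merged per treatment. The libraries held 48144367, 51137896 and 46863700 counts (DMSO A, B and C) and 49334434, 44985772 and 42270312 counts (MB-3 A, B and C).

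Cells build saturated fatty acids in the cytosol from acetyl-CoA, which ATP citrate lyase cuts from citrate and acetyl-CoA carboxylase turns into malonyl-CoA for fatty acid synthase, and elongases and desaturases then shape the chains. Cholesterol comes from the same acetyl-CoA by way of mevalonate, isoprenoid diphosphates, squalene and lanosterol. When sterols in the endoplasmic reticulum run low, Scap escorts the SREBP transcription factors, encoded by Srebf1 and Srebf2, out of it, and the released factors raise transcription of both pathways. Insig proteins hold Scap back when sterols are plentiful.

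Promoter stretches from the RefSeq promoter table (mouse build GRCm38.p6, each window 250 bases before and 50 bases after a start site) are shown because SREBP factors are known to bind sterol regulatory elements and E-boxes beside CCAAT and GC boxes. Capitals mark the letters searched: CACCCCAC, the core of a sterol regulatory element, in Hmgcs1 and Acat2, the E-box CACGTG in Insig1 and Hsd17b7, and the NF-Y box CCAAT in Elovl1. The stretches run 5′ to 3′ on each gene's own strand, at chr13:119690179-119690258 (plus strand) for Hmgcs1, chr17:12960863-12960942 (minus) for Acat2, chr5:28071275-28071352 (plus) for Insig1, chr1:169969307-169969384 (minus) for Hsd17b7 and chr4:118427973-118428092 (plus) for Elovl1.
Hmgcs1: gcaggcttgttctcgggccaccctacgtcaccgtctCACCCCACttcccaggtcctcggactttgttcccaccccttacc
Acat2: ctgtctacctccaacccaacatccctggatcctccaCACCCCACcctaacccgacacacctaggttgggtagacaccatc
Insig1: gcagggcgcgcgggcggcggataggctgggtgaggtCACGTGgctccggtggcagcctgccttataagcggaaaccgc
Hsd17b7: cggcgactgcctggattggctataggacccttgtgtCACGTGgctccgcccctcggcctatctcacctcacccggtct
Elovl1: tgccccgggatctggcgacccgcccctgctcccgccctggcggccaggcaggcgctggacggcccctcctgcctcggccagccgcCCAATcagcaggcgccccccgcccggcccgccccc

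Promoter windows were at hand for 28 of the 35 genes, 36 windows in all. Scd1, Scd2, Fads1, Fdps, Fdft1, Sqle and Stard4 had no entry. Searched on both strands, CACCCCAC was in the windows of 2 genes, Hmgcs1 and Acat2, beginning 136 and 181 bases before the start site, and it was in 2.87% of all 32851 windows of the table. The longer form TCACNCCAC, which overlaps the Hmgcs1 core shown above, was in 1 gene's window, against 1.24% of all windows. CACGTG was found for 6 genes (Dhcr7, Elovl5, Hsd17b7, Insig1, Sc5d and Scap), in 7 of 36 windows against 7.15% of all windows. CCAAT was found for 23 genes, in 24 of 36 windows against 37.4%, and the GC box GGGCGG for 22 genes, in 26 of 36 windows against 35.7%. These are matches of letters, and occupancy of the sites was not measured here.

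The cells carried the RNA of ES cells in both treatments and little RNA of tissues known for lipid synthesis. The 10 ES cell markers (Dppa5a was the most abundant) summed to between 4890 and 5467 CPM (counts scaled to the normalized library size) in the 6 libraries. Of these 10, 0 passed the adjusted threshold in edgeR, where 0.205% of all genes tested did. At an unadjusted p under 0.05 there were 2, against 10.9% of all genes, Utf1 higher (log2 fold change 0.27) and Klf4 lower (-0.15). Estimates were above zero for 6 of the 10 and below for 4. The groups of 2 (20%), Esrrb and Klf4, stood apart with MB-3 lower, against 7.37% of all genes. With MB-3 higher, 0 stood apart, against 8.22%. With the replicate letter fitted as a block Utf1 passed in edgeR (log2 fold change 0.28, adjusted p = 0.0023) and Klf4 did not (-0.14, adjusted p = 0.066). Of the 5 adipocyte markers 4 were analysed, none had enough counts to be tested, and their sum stayed between 0.0910 and 0.301 CPM. Among 4 hepatocyte markers 3 were analysed, and Apob was the most abundant in a sum of 0.478 to 0.643 CPM.

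The lettered replicates differed from each other in keratins, markers of simple epithelium. The summed level of Krt7, Krt8, Krt18 and Krt19 was 161, 88.4 and 284.5 CPM in DMSO A, B and C, and 72.8, 50.8 and 124 CPM in MB-3 A, B and C. Replicate C was highest and replicate B lowest under either treatment, and the estimated change under MB-3 was below zero for all 4 keratins, 3 of them at an unadjusted p under 0.05 and 0 past the adjusted threshold in edgeR. With the replicate letter fitted as a block, 3 of the 4 passed in edgeR, Krt8 (adjusted p = 1.1e-15), Krt19 (7.2e-15) and Krt18 (1.5e-11), where 7.12% of all genes did. The 10 fibroblast markers summed to 11.6, 9.21 and 12.9 CPM in DMSO and 8.45, 8.90 and 8.69 CPM in MB-3. Of these, 8 were tested, all 8 had estimates below zero, 2 had an unadjusted p under 0.05, and 0 passed the adjusted threshold in edgeR, beside the shares of all genes given above. Those 2 were the collagens Col1a1 (log2 fold change -1.32) and Col1a2 (-1.27), whose groups stood apart (as did those of 7.37% of all genes in that direction) and which passed with the block (adjusted p = 0.0023 and 0.00012, edgeR). In bulk RNA, fewer cells of a type and less RNA per cell cannot be told apart.

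Lipid synthesis genes ran from levels above 29.7% of the tested genes (Idi1) to levels above 95.2% (Scd2). Per kb of exon, the highest level in DMSO was that of Scd2, a stearoyl-CoA desaturase that makes monounsaturated fatty acids, at 85.5 ± 0.619 CPM per kb (SD, n = 3), set among 19958 tested genes with a known length. Acly, ATP citrate lyase, stood at 84.0 ± 2.0 CPM per kb. The order of these genes rests on the length used, since on the longest transcript Acly had 100.2 and Scd2 85.7 CPM per kb. Hmgcs1, which makes HMG-CoA for the mevalonate pathway, followed at 57.2 ± 1.23 CPM per kb, then the cytosolic thiolase Acat2 at 40.0 ± 2.64 and fatty acid synthase, Fasn, at 28.2 ± 1.05 CPM per kb.

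At the other end, Idi1, the isopentenyl diphosphate isomerase, had 1.07 ± 0.0984 CPM per kb, or 141 to 204 counts in a library, and the acetyl-CoA synthetase Acss2 had 1.16 ± 0.0269 CPM per kb. On the longest transcript Idi1 had 1.24 and Acss2 3.26 CPM per kb, with Acacb at 2.05 between them, and Idi1 was the lowest of the 35 with both lengths. Scd2 stood 6.02 times above Scd1 per kb. The acetyl-CoA carboxylase genes were low, with Acaca 1.34 times above Acacb on exon length and 2.19 times on the longest transcript. The size of that difference rests on the length used. It is also uncertain because 52.6% of the 50-base stretches in the longest Acaca transcript occur in Gm5182, another annotated gene, and none of those in Acacb are shared.

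**Figure D1:**
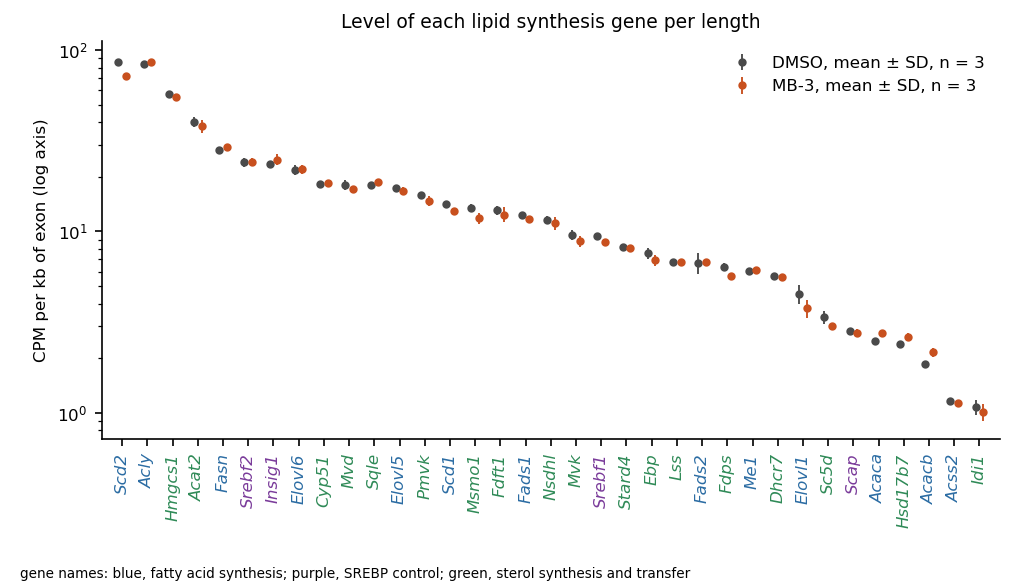
Level of each of the 35 genes per kb of exon (vertical log axis, CPM per kb) in DMSO (grey) and MB-3 (orange), as mean ± SD over 3 libraries, ordered by the DMSO level. The genes run from 1.07 (Idi1) to 85.5 (Scd2) CPM per kb in DMSO, and the orange and grey points lie close together for nearly every gene, with Scd2 the clearest gap among the abundant genes.

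Lipid synthesis transcripts stayed close to their DMSO levels under MB-3. None of the 35 genes passed the adjusted threshold of 0.05 in edgeR's quasi-likelihood test, adjusted by Benjamini-Hochberg, where 0.205% of all 20027 genes tested passed (41 genes, 20 higher and 21 lower). With DESeq2, 1 of the 35 passed (Scd2), against 1.11% of the genes given an adjusted p, and with limma-voom none passed, against 0.0899%. At an unadjusted p under 0.05 there were 7 of 35, 2 higher and 5 lower, where 10.9% of all genes had such a p. The fitted log2 fold changes (MB-3 against DMSO) ran from -0.27 to 0.20 with a median of -0.05, beside a median of 0.00 over all genes, and 13 were above zero and 22 below. With a library left out the median lay between -0.08 (without MB-3 C) and -0.02 (without MB-3 A). Their 95% intervals reached no lower than -0.50 and no higher than 0.36.

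**Figure D2:**
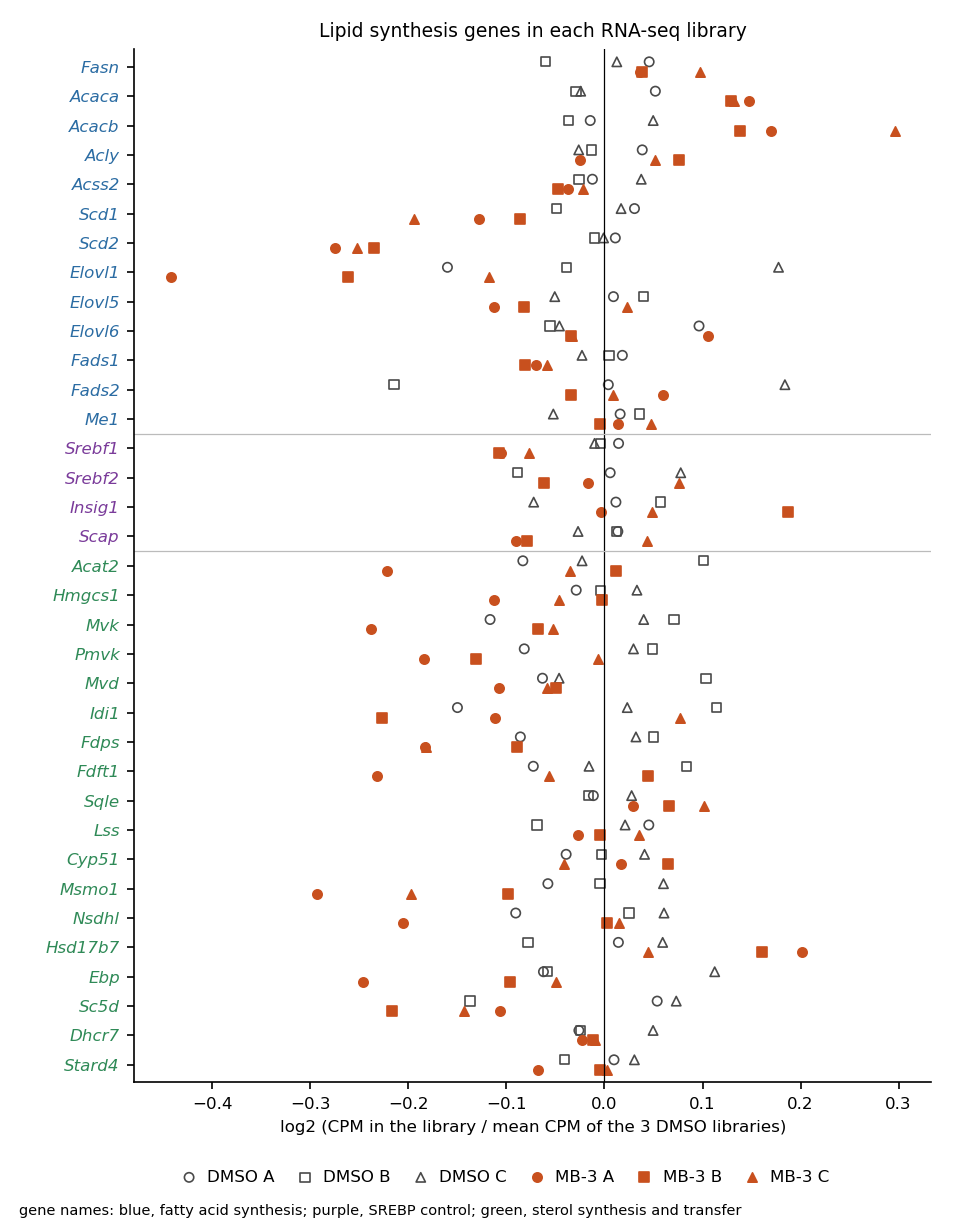
Each of the 35 genes (rows, grouped by role) in each library, as log2 of its CPM over the mean CPM of the 3 DMSO libraries (horizontal axis), with DMSO open and MB-3 filled and a symbol for each replicate letter. Most filled and open symbols overlap, while Acaca, Acacb and Sqle lie to the right of every DMSO symbol, and Scd1, Scd2, Fads1, Srebf1, Fdps and Msmo1 to the left.

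For 3 of the 35 genes, Acaca, Acacb and Sqle, all MB-3 values exceeded all DMSO values, where 8.22% of all genes tested had groups apart in that direction. For 6 genes, Scd1, Scd2, Fads1, Srebf1, Fdps and Msmo1, all MB-3 values were lower, where 7.37% of all genes did. The count higher was 8.57% of the 35 genes and the count lower 17.1%.

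None of the 4 genes that control the sterol response passed the test. Srebf1 (ENSMUSG00000020538) had 53.5, 52.8 and 52.6 CPM in DMSO A, B and C and 49.2, 49.1 and 50.2 CPM in MB-3 A, B and C. The groups did not overlap, and the estimated log2 change was -0.10 (SE 0.06, adjusted p = 0.55 in edgeR). Exons of Srebf1 overlap those of Rai1 on the opposite strand, and use of strand in counting is not given in the sources used here, so their reads cannot be told apart. The same holds for parts of Acss2, Elovl1, Elovl6, Me1, Scap, Hmgcs1, Idi1, Fdft1, Lss and Cyp51, which overlap other genes on the opposite strand.

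Srebf2, whose factor chiefly drives sterol synthesis, had 174, 163 and 183 CPM in DMSO and 171, 166 and 183 CPM in MB-3. In both groups replicate C was highest and replicate B lowest, and the log2 fold change was 0.00 (95% interval -0.13 to 0.13). Insig1 had 73.3, 75.6 and 69.1 CPM in DMSO and 72.5, 82.8 and 75.2 CPM in MB-3. Its groups overlapped, with MB-3 B the highest library, at a log2 fold change of 0.08 (-0.06 to 0.22), or 0.02 without MB-3 B. Scap had 21.3, 21.2 and 20.7 CPM in DMSO and 19.8, 19.9 and 21.7 CPM in MB-3, again overlapping, at -0.04 (-0.19 to 0.11).

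Among the enzymes that make the fatty acid chain, both acetyl-CoA carboxylase genes stood higher under MB-3 and the others overlapped. Fasn, the synthase itself (chr11:120805846-120824547, GRCm38, minus strand), had 318, 296 and 311 CPM in DMSO and 316, 317 and 329.8 CPM in MB-3. Its groups overlapped, and the log2 fold change was 0.06 with a 95% interval of -0.06 to 0.18 (adjusted p = 0.74, edgeR). Acly had 455, 439 and 435 CPM in DMSO and 436, 467 and 459.6 CPM in MB-3, overlapping, at a log2 fold change of 0.03. Acss2 (-0.04) and malic enzyme, Me1, a source of NADPH (0.02), were as close to zero, and 26.5% of the 50-base stretches of Me1 occur in other annotated genes.

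Acaca (ENSMUSG00000020532, chr11:84129672-84401651, plus strand), the carboxylase that supplies malonyl-CoA for synthesis in most tissues, had 44.1, 41.7 and 41.9 CPM in DMSO and 47.2, 46.6 and 46.7 CPM in MB-3. The groups stood apart, DMSO A being the nearest to MB-3, at a log2 fold change of 0.14 (SE 0.06), with an unadjusted p of 0.035 and an adjusted p of 0.41 in the edgeR test fitted across all genes. Acacb (ENSMUSG00000042010, chr5:114146535-114250761, plus strand), the carboxylase known for malonyl-CoA at the mitochondrial surface, had 17.8, 17.5 and 18.6 CPM in DMSO and 20.2, 19.8 and 22.1 CPM in MB-3. Replicate C was the highest in both groups and the groups stood apart, at 0.20 (95% interval 0.05 to 0.36, adjusted p = 0.32, edgeR). Of the 50-base stretches in the longest Acaca transcript, 52.6% also occur in Gm5182, an annotated gene not analysed here. None of those in Acacb occur in another gene.

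The stearoyl-CoA desaturases lay on the other side. Scd2 (ENSMUSG00000025203, chr19:44293674-44306864, plus strand) had 471, 464 and 467 CPM in DMSO and 386, 397 and 392 CPM in MB-3. The DMSO libraries were within a few CPM of each other and all stood well above the MB-3 libraries, by a log2 fold change of -0.25 (SE 0.05, 95% interval -0.37 to -0.14), or a mean 16.1% lower. The unadjusted p was 0.00033 and the adjusted p 0.08 in edgeR, short of the threshold, while DESeq2 gave an adjusted p of 0.00034. Its neighbour Scd1 (chr19:44394455-44407879, minus strand), the desaturase best known from liver and fat, had 71.0, 67.1 and 70.3 CPM in DMSO and 63.6, 65.4 and 60.7 CPM in MB-3. The groups stood apart, DMSO B being the nearest to MB-3, at -0.14 (95% interval -0.26 to -0.01, adjusted p = 0.41, edgeR). In shared sequence, 4.01% of the 50-base stretches of Scd2 and 4.66% of those of Scd1 occur in other annotated genes, other Scd genes among them. The remaining Scd genes of the cluster were low, with Scd3 at 4.06 to 5.17 CPM and Scd4 at 0.864 to 1.45 CPM.

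Elongases and the fatty acid desaturases of polyunsaturated chains did not share a direction. Elovl1 (ENSMUSG00000006390, chr4:118428093-118432953, plus strand), which extends long saturated chains, had 11.1, 12.0 and 14.0 CPM in DMSO and 9.10, 10.3 and 11.4 CPM in MB-3. The groups overlapped, since MB-3 C lay above DMSO A, and in both groups replicate C was highest and replicate A lowest. The log2 fold change was -0.27, the lowest of the 35, with a wide 95% interval of -0.50 to -0.04 (adjusted p = 0.38, edgeR). Without DMSO C the estimate was -0.17, nearer zero than that of Scd2 (-0.25), and without MB-3 C it was -0.35. Elovl1 shares exonic sequence with Cdc20 on the opposite strand, a mitotic gene at 184 to 209 CPM here, and without strand their reads cannot be told apart. Elovl5 (-0.06) and Elovl6 (0.01), and Fads1 (-0.07) and Fads2 (0.01), had intervals that included zero.

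In the mevalonate pathway most estimates were slightly below zero, and none passed the test. Over the 18 sterol genes 14 estimates were below zero and 4 above, with a median of -0.07, while the 13 fatty acid genes had 6 below and 7 above with a median of 0.01. These medians moved with single libraries, the sterol median to -0.02 without MB-3 A and -0.04 without DMSO B, and the fatty acid median below zero without DMSO B (-0.04), DMSO C (-0.0083) or MB-3 A (-0.03). Hmgcs1 had 257.5, 262 and 269 CPM in DMSO and 243, 262 and 254 CPM in MB-3. The groups overlapped, and MB-3 A was the lowest of all 6 libraries, at a log2 fold change of -0.05 (95% interval -0.17 to 0.06). Idi1 had 3.39, 4.07 and 3.82 CPM in DMSO and 3.48, 3.21 and 3.96 CPM in MB-3, with the widest interval of the sterol genes (-0.38 to 0.21). Acat2 (-0.08), the kinases Mvk (-0.12) and Pmvk (-0.11), the decarboxylase Mvd (-0.07) and the squalene synthase Fdft1 (-0.08) likewise overlapped. Without MB-3 A the estimate was -0.0047 for Fdft1, -0.01 for Acat2, -0.02 for Hmgcs1, -0.06 for Mvk and -0.07 for Pmvk. Mvd moved to -0.02 without DMSO B, and Idi1 from -0.08 to -0.02 without MB-3 B. Near-identical copies make some of these values uncertain, since 45.9% of the 50-base stretches of Acat2 occur in Acat3, and 21.3% of those of Idi1, 11.7% of Fdps and 10.9% of Fdft1 occur in other annotated genes. Fdps, which makes farnesyl diphosphate, had its groups apart at -0.15 (95% interval -0.30 to -0.0034, adjusted p = 0.44, edgeR).

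Past squalene, the estimates lay on both sides of zero. Sqle, squalene epoxidase, a step that limits flux to sterols, had 98.8, 98.45 and 101.5 CPM in DMSO and 101.6, 104 and 107 CPM in MB-3. The groups stood apart by a narrow margin, with an estimate of 0.07 on the log2 scale (adjusted p = 0.69, edgeR). Msmo1 (ENSMUSG00000031604, chr8:64718139-64733792, minus strand), which removes methyl groups from the sterol ring, had 79.9, 82.8 and 86.7 CPM in DMSO and 67.8, 77.7 and 72.5 CPM in MB-3. The groups stood apart, MB-3 B being the nearest to DMSO, at -0.19 (95% interval -0.33 to -0.06), a mean 12.6% lower, with an unadjusted p of 0.009 and an adjusted p of 0.27 in edgeR.

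Hsd17b7, a reductase of the same demethylation complex, had 12.3, 11.5 and 12.65 CPM in DMSO and 14.0, 13.6 and 12.5 CPM in MB-3. Its groups overlapped at MB-3 C, with a log2 fold change of 0.14 (95% interval -0.04 to 0.32). The cyclase Lss (0.00), Cyp51 (0.01), Nsdhl (-0.06), Ebp (-0.13), Sc5d (-0.15) and the last reductase, Dhcr7 (-0.01), all overlapped. Without DMSO C the estimate for Ebp was -0.07. Stard4, which carries cholesterol between membranes, had 46.1, 44.6 and 46.8 CPM in DMSO and 43.7, 45.7 and 45.9 CPM in MB-3, overlapping, at -0.02 (95% interval -0.15 to 0.10).

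Levels also differed among replicates of the same treatment. Replicate A was the lowest of the DMSO libraries for 13 of the 18 sterol genes and the lowest of the MB-3 libraries for 14, where it was lowest for 31.9% and 32.7% of all genes with counts in every library. Among the fatty acid genes replicate A was lowest for 1 of 13 in DMSO and 5 of 13 in MB-3, and replicate B was lowest for 8 of 13 and 7 of 13, beside 35.5% and 35.4% of all genes. The median sterol gene stood at a log2 ratio of -0.06, 0.00 and 0.03 to the DMSO mean in DMSO A, B and C, and of -0.11, -0.01 and -0.04 in MB-3 A, B and C. Differences of that size among replicates of 1 treatment were as large as the median difference between treatments.

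The replicate letter was also fitted as a block. The median standard error over the 35 genes was 0.06 without the block and 0.05 with it. With the block 4 of 35 genes passed the adjusted threshold in edgeR, where 7.12% of all genes passed (1425 genes). Acacb was higher (adjusted p = 0.046), and Scd2 (9.2e-05), Msmo1 (0.01) and Elovl1 (0.029) were lower, by log2 fold changes of 0.20, -0.25, -0.20 and -0.27. For each of these genes the difference had the same sign in letters A, B and C. Passing with the block favours such genes, so the shared sign adds no separate support. The labels do not say that a letter marks a shared batch or day, so these calls rest on taking the letters as pairs. The 3 keratins, 2 collagens and Utf1 given above also passed with the block. Acacb ranked its replicates as the summed keratins did under either treatment. So did Acss2 and Srebf2, which makes 3 of the 35 genes (8.57%), near the 6.05% of 20024 genes with counts in every library. The part of the keratin difference among replicates in the calls made with the block was not tested.

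**Figure D3:**
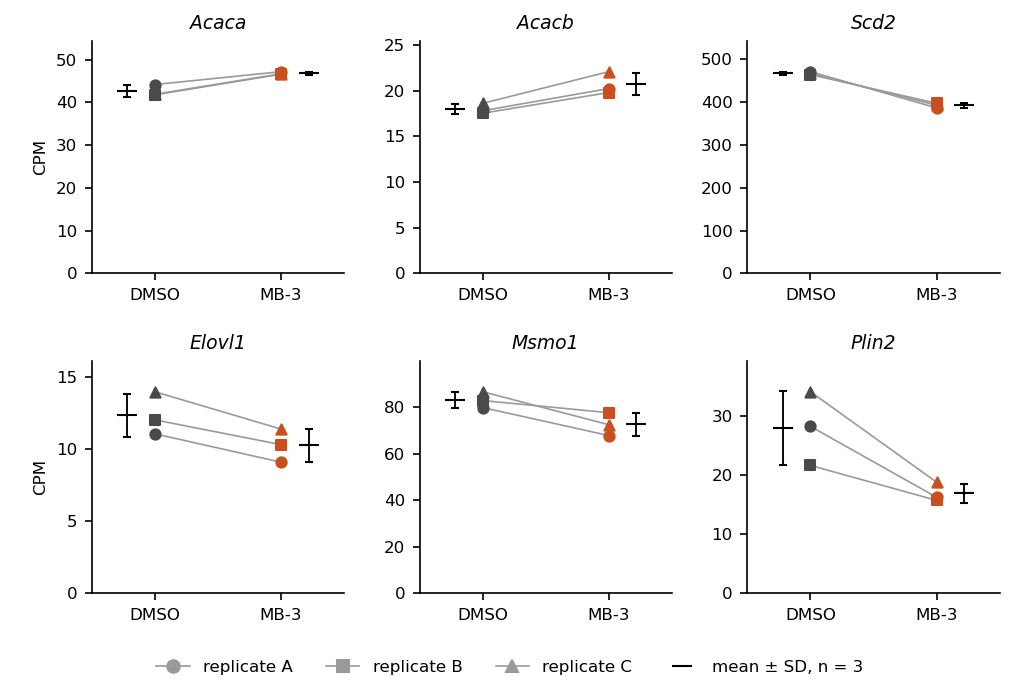
CPM (vertical axis, from 0) of Acaca, Acacb, Scd2, Elovl1, Msmo1 and Plin2 in each DMSO (grey) and MB-3 (orange) library, lines joining libraries of the same replicate letter, and black bars giving mean ± SD of 3 libraries. Every line of a panel slopes the same way, and only in the Elovl1 panel do the treatments overlap.

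**Figure D4:**
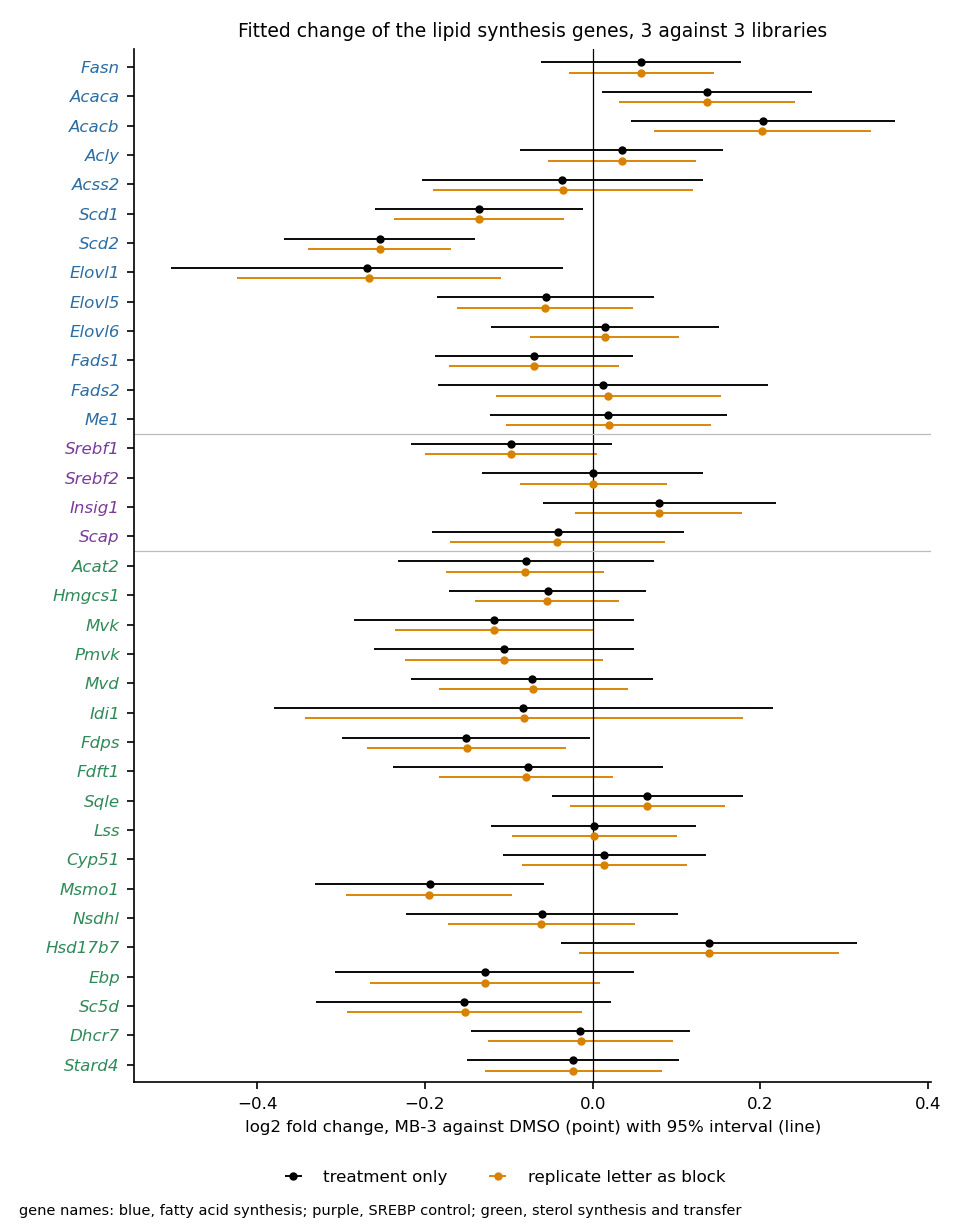
Log2 fold change of MB-3 against DMSO (horizontal axis) with its 95% interval for each of the 35 genes, fitted with treatment only (black) and with the replicate letter as block (orange). The estimates of the fits coincide, the orange intervals are narrower, and no interval goes past -0.50 or 0.36.

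Set among all genes, the lipid synthesis genes had estimates of about the same size as the genes within their range of mean CPM. That range ran from 3.76 (Idi1) to 467 CPM (Scd2) in DMSO, and genes were not matched by abundance within it. The median size of the log2 fold change was 0.07 for the 35 genes, 0.07 for the 12586 tested genes within their range of mean CPM and 0.10 for all 20027. A log2 change over 0.2 in either direction was estimated for 3 of the 35 (8.57%), against 25.5% of all genes tested. That share is not given for genes in their range of CPM. The median standard error was 0.06 for the 35 genes, 0.08 for genes in that range and 0.10 for all genes. The DMSO libraries spread by a median coefficient of variation of 4.1% for the 35 genes and 6.2% for genes in their range of CPM.

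**Figure D5:**
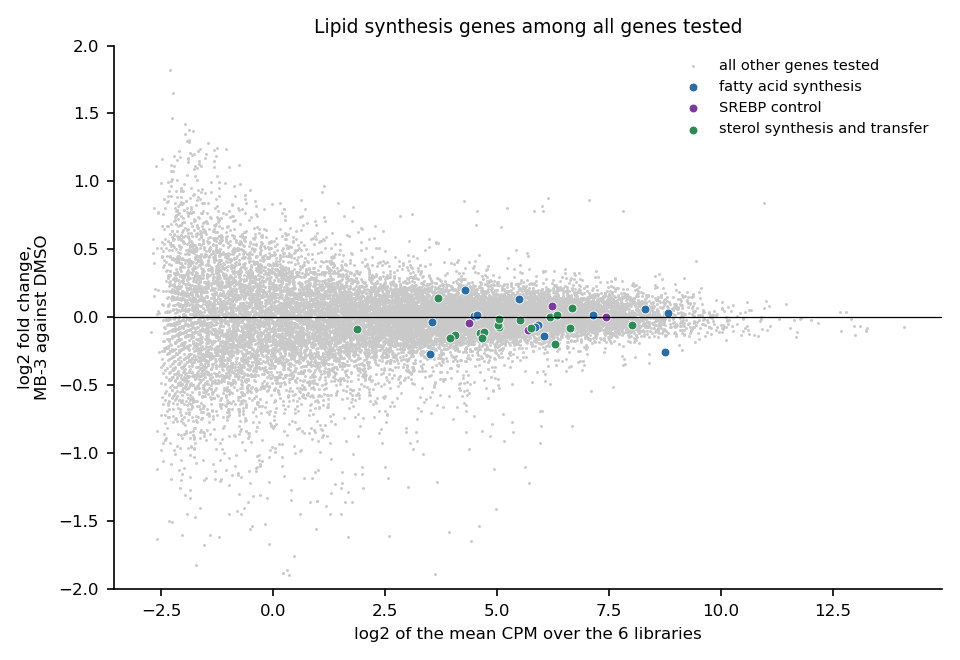
Log2 fold change of MB-3 against DMSO (vertical axis, shown from -2.0 to 2.0, with 8 genes outside) against log2 of the mean CPM over 6 libraries (horizontal axis) for 20019 genes (grey), with the 35 lipid synthesis genes coloured by role. The coloured points lie inside the grey band, between -0.27 and 0.20.

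Around the 35 genes, 112 further genes of lipid metabolism in 8 lists were examined. Of the 106 tested, 1 passed the threshold (0.943%), against 0.205% of all genes tested. That gene was Plin2 (ENSMUSG00000028494), which coats lipid droplets and protects the stored lipid. It had 28.2, 21.6 and 34.1 CPM in DMSO and 16.3, 15.7 and 18.8 CPM in MB-3. All DMSO libraries were above all MB-3 libraries, DMSO C the farthest and DMSO B the nearest. Plin2 fell by 0.72 on the log2 scale (SE 0.13, adjusted p = 0.049, edgeR), close to the threshold, and lost the call when DMSO A (adjusted p = 0.13), DMSO C (0.14), MB-3 A (0.36) or MB-3 B (0.29) was left out, with the estimate between -0.88 and -0.56 over the libraries left out in turn. With all 6 libraries kept, it also missed the threshold with RLE (adjusted p = 0.053) or upper-quartile scaling (0.051), a filter of 1 CPM in 3 libraries (0.065), the robust option (0.21) or limma-voom (0.084), and passed with DESeq2 (1.9e-05) and with no filter on low counts (0.002). It ranked its replicates C, A, B in DMSO and C, A, B in MB-3, the order of the summed keratins given above, which 6.05% of 20024 genes with counts in every library shared. The part of that difference among replicates in the result was not tested.

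Among the further genes of the SREBP pathway and of sterol handling, all 16 were tested in edgeR without the block and 0 passed, with 2 at an unadjusted p under 0.05, beside the 0.205% and 10.9% of all genes given above. The same test gave 0 of 8 for LXR targets, the genes of the sterol-activated nuclear receptor, with 2 at an unadjusted p under 0.05.

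In the other lists few genes passed in edgeR without the block, and counts at an unadjusted p stand beside 10.9% of all genes. Genes that supply acetyl-CoA, malonyl-CoA and NADPH had 0 of 14 past the threshold (1 at an unadjusted p under 0.05), glycerolipid synthesis 0 of 19 (4), fatty acid uptake and activation 0 of 10 tested (4), mitochondrial fatty acid synthesis 0 of 8 tested (0), and the remaining elongases and desaturases 0 of 12 tested (1). Fatty acid oxidation and PPAR targets had 1 of 19 tested, which was Plin2, and 2 at an unadjusted p under 0.05. Their medians ran from -0.12 for the elongases and desaturases to 0.04 for the mitochondrial and the uptake lists.

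With the letter as block 11 of the 106 passed, 4 higher and 7 lower, beside the 7.12% of all genes given above. Higher were the acyl-CoA synthetases Acsl4 (log2 fold change 0.19, adjusted p = 0.016) and Slc27a2 (0.19, 0.021), the sterol exporter Abcg1 (0.26, 0.023) and choline kinase, Chka (0.15, with an adjusted p that rounds to 0.05), all in edgeR. Lower were Plin2 (-0.71), the acyltransferases Agpat3 (-0.29) and Mogat2 (-1.06), the elongase Elovl7 (-0.46), Acsl3 (-0.19), the sterol esterifying enzyme Soat1 (-0.19) and the lysosomal sterol carrier Npc2 (-0.18). Of those, Mogat2 stood at 0.296 to 1.85 CPM, near the filter on low counts. Plin2, Agpat3, Mogat2 and Soat1, 4 of the 11, ranked their replicates as the summed keratins did under either treatment, and the part of that difference in these calls was not tested. In the fit without the block, leaving out a library moved the estimate of Mogat2 between -1.59 and -0.45, that of Agpat3 between -0.39 and -0.18 and that of Abcg1 between 0.14 and 0.36. The value nearest to zero came without DMSO C for each of these genes.

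Positions of H3K9ac peaks could be read for a part of the genes. The peak lists are on build mm9, give no score and come from merged duplicates, so no test was made, and gene names were taken from the portion at hand of the study's own assignment of peaks to genes, 1999 peaks of each list, which for DMSO end on chromosome 11. In it 7 DMSO peaks carried the name of a listed gene, 4 of them Srebf1 and the others Acaca, Acly and Lss. Of all 11724 DMSO peaks, 35.8% were overlapped by at least 1 bp by one of the 4673 MB-3 peaks. The MB-3 list held a peak overlapping 1 of these 7, the Srebf1 peak at chr11:59989076-59990203 (1128 bp), inside which lay an MB-3 peak of 474 bp at chr11:59989165-59989638. The Acaca peak at chr11:83993417-83994543, the Acly peak at chr11:100388236-100389132 and the Lss peak at chr10:75994483-75994932 had no MB-3 peak within 1000 bp. The other Srebf1 peaks, at chr11:60023375-60023796, chr11:60024272-60024537 and chr11:60033410-60034095, had none within that distance either. The overlapped peak had the lowest coordinates of the 4 named for Srebf1, a gene on the minus strand. Gene positions used here are on GRCm38, so distances of these peaks from start sites were not read, and no peak is placed at a promoter. For 4 MB-3 peaks named for Srebf1, Fasn, Idi1 and Srebf2, a DMSO peak overlapped each, where 97.0% of all MB-3 peaks were overlapped. Beside these positions, Acaca, Acly and Lss RNA had log2 fold changes of 0.14, 0.03 and 0.00.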

How the data were processed

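RNA-seq counts were deposited by the authors as raw counts per Ensembl gene, made from single-end reads aligned to mm10 with Bowtie and counted at exons. Versions, annotation release and use of strand are not given in the sources used here. H3K9ac peak positions were deposited as 3 columns on mm9, called with MACS2 on merged duplicates. Libraries were grouped by the labels. Symbols came from GENCODE M21 (30540 of 30677 identifiers, all 35 members).

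Genes were kept by filterByExpr (20027), and MB-3 was compared with DMSO over 3 libraries each by the quasi-likelihood test of edgeR 4.0.16 (R 4.3.3, TMM, treatment only), with Benjamini-Hochberg adjustment over all genes tested. CPM are counts scaled to the TMM-normalized library size. Alternatives were RLE and upper-quartile scaling, 2 other filters on low counts, the robust option, DESeq2 1.42.0, limma-voom (limma 3.58.1), the replicate letter as block and each library left out. The procedure was tested on simulated data. Peak overlaps, promoter letters and plots were made in Python 3.11.15 with pandas 2.3.3, numpy 2.4.6 and matplotlib 3.10.9.

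The members, the other lists and the alternatives were chosen with earlier results of these data known. Values per library are given for regulators, chief enzymes, genes past a threshold with or without the block, and the 3 largest rises and falls. From each other list, genes past the threshold are named, with the 2 highest and 2 lowest past it with the block. Cdc20, Scd3 and Scd4 were named after their values were seen. Results for some genes are not reported here. The study's methods describe treatment in triplicate. The labels mark the samples by letter and do not say that they were separate cultures, so p-values measure the spread between these samples. Columns not used numbered 0.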

Additional observations from a re-analysis of the deposited data

How the results depend on the processing

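Over the full libraries, 338 of 367 comparisons of a named gene's change with its alternatives kept direction and side of the threshold. The count of listed genes past the threshold was 1 with DESeq2, 1 with no filter on low counts (Scd2 in both) and 0 to 1 with a library left out, the 1 being Scd2 without DMSO B. Over all genes, the 41 calls became 192 with DESeq2, 194 with no filter, 24 at 1 CPM or more in 3 libraries, 18 with limma-voom, 66 with the robust option, 25 with upper-quartile scaling and 0 to 520 with a library left out (520 without DMSO B, 62 without MB-3 C, 5 without DMSO C, 3 without DMSO A, 0 without MB-3 A or MB-3 B). The 1 call in the other lists (Plin2) became 0 with RLE, upper-quartile scaling, 1 CPM in 3 libraries, limma-voom and the robust option, and 0 to 6 with a library left out (6 without DMSO B, 1 without MB-3 C, 0 without the others). With all 6 libraries kept, genes with groups apart and MB-3 higher numbered 2 with RLE scaling and 2 with no filter. Those with MB-3 lower numbered 7 with no filter and 7 with upper-quartile scaling. With a library left out, genes with groups apart numbered 2 to 5 higher (5 without DMSO C) and 6 to 12 lower (11 without DMSO A, 12 without MB-3 C). The median change of the 35 genes was then -0.0755 to -0.016. Groups stand apart more easily with fewer libraries. The share of all genes in those settings is not given here, so nothing is read from these counts. With at least 50% of a DMSO peak covered, 0 of 7 were shared. The share of all DMSO peaks at that cover is not given here, so nothing is read from this count. The Acaca to Acacb ratio of levels was 2.19 on the longest transcript, since lengths differ. Estimates near zero changed sign: Srebf2 to -0.0014 (DESeq2 and RLE), -0.0058 (no filter) and -0.0054 (upper quartile), and Lss to -0.0002, -0.0002, -0.0047 and -0.0042. With a library left out, Elovl6 ran from -0.0333 to 0.0649, Fads2 from -0.085 to 0.1134, Me1 from -0.0068 to 0.0367, Srebf2 from -0.0422 to 0.0405, Lss from -0.032 to 0.0241, Cyp51 from -0.0137 to 0.041, Nsdhl from -0.1037 to 0.009 and Dhcr7 from -0.0283 to 0.0103. The cause of these shifts was not tested.

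Replicate letters were checked for pairing: deviations of same-letter libraries correlated at 0.098 (A), 0.261 (B) and 0.213 (C), and every library correlated best with its own letter, which is a hint from the data and not from the design. The replicate block moved calls to 4 of the listed genes, 1425 of all genes and 11 of the other lists. The 95% intervals of the 35 genes, which reached -0.50 at the low end (Elovl1) and 0.36 at the high end (Acacb), the widest being that of Idi1 (-0.38 to 0.21), are the precision that 3 libraries per group gave.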
